A study of Mus musculus with 8 samples.

Results

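The 35 genes described here encode lineage transcription factors of the basic helix-loop-helix (bHLH) class. They were chosen by name, as neural (18 genes), muscle (5 genes) and mesoderm (12 genes) members, from 34324 protein-coding and lncRNA genes, and all lie on autosomes. The data are lists of peaks of H3K27me3, a histone mark, from neural stem cell lines that were derived from female E14.5 mouse embryos of mixed C57BL/6, 129 and Castaneus background. All lines began with 1 deleted and 1 floxed allele of Smchd1, whose product is a chromatin protein that helps silence the inactive X chromosome. All also had a maternal 129 X chromosome with the deltaA allele of Xist and a paternal X chromosome of Castaneus origin. In the del/del cells the floxed allele was removed with the retrovirus MSCV-Cre-puro, puromycin was added after 24 h, and cells were collected on day 7. The del/fl controls were the untransduced part of the lines. There were 2 libraries of each genotype, each with a whole-cell extract library that served only as the control of the peak calls. The lists do not separate the parental alleles.

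bHLH factors bind DNA as dimers, most of them with a ubiquitous E protein, and drive cells into neural, muscle, heart, blood or connective tissue fates. In neural stem cells, Hes repressors and Id proteins hold back the proneural members until a cell begins to differentiate. H3K27me3 is placed by Polycomb repressive complex 2 and often covers genes of developmental regulators that a cell does not use, in domains that reach far past the gene.

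Promoter sequences of 6 members, chosen after their values were seen, show the contrast the results turn on: Neurog1, Twist1 and Olig3 lay under the mark in all 4 libraries, and Olig2, Neurod6 and Myog had no peak within 2.5 kb of their ends in any library. Each is the 250 bases before the transcription start, 5′ to 3′ on the gene's strand, from RefSeq (GRCm38.p6, the same build as mm10), with every CG dinucleotide in capitals. Neurog1 (chr13:56252181-56252430, minus strand) holds 29 CG, Twist1 (chr12:33957421-33957670, plus strand) 18, Olig3 (chr10:19356289-19356538, plus strand) 4, Olig2 (chr16:91225300-91225549, plus strand) 22, Neurod6 (chr6:55681264-55681513, minus strand) 3 and Myog (chr1:134289754-134290003, plus strand) 7.
Neurog1: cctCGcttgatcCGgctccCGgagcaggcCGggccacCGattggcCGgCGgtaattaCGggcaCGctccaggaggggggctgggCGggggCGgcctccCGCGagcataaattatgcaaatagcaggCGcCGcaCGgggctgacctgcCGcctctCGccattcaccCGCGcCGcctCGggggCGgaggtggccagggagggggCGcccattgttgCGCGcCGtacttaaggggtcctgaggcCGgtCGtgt
Twist1: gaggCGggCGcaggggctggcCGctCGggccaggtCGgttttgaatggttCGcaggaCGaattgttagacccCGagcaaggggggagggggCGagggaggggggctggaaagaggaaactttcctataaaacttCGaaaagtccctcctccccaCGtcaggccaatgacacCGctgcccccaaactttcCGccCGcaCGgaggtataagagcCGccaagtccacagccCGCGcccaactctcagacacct
Olig3: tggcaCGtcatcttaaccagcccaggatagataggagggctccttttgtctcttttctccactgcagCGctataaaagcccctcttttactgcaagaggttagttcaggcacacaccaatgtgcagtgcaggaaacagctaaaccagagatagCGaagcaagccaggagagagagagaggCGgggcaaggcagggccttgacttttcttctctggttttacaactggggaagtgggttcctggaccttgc
Olig2: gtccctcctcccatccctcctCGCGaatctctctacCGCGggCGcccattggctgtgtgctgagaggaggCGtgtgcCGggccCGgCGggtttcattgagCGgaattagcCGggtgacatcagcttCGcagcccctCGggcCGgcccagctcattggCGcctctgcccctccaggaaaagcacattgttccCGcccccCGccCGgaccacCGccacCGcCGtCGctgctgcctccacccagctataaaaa
Neurod6: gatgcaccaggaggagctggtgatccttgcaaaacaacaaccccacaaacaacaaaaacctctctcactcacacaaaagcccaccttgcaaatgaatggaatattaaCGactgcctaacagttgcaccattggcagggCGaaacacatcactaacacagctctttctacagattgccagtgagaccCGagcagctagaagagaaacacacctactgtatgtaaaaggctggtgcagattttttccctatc
Myog: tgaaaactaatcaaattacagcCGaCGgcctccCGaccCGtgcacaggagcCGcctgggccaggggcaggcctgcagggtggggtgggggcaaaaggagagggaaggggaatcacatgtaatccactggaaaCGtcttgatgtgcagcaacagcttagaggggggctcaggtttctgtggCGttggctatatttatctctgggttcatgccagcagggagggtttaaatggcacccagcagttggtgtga
Both sets hold CG-rich and CG-poor promoters.

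The measure used most is the percent of the DNA within 2.5 kb of the 2 annotated ends of a gene that lay under a peak, called cover at gene ends. A domain is the longest run of peaks that touches a gene or its 2.5-kb surroundings, with gaps of up to 3 kb bridged. Values are given in the order del/del replicate 1, del/del replicate 2, del/fl replicate 1 and del/fl replicate 2.

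The H3K27me3 libraries had similar depth, with 11793402 to 14064030 tags used by the peak caller. Their whole-cell extract controls were less even, with 20770551, 31629404, 19579060 and 15525700 tags used. The part of this difference in the peak lists was not tested. The lists of replicate 2 held more autosomal peaks in both genotypes (26327 and 26637, against 17102 and 17564 for replicate 1), and the mean cover at gene ends over the 8064 autosomal genes with a peak was 16.9%, 20.1%, 18.2% and 21.9%. The difference of the genotype means, del/del minus del/fl, was −1.52 points, with overlapping libraries. Of 8 neural stem cell marker genes, 6 (Sox2, Nes, Vim, Fabp7, Hes5 and Msi1) had no peak at their ends, but neither did any of 3 blood markers. Absence of the mark is no measure of expression, so the lists do not test the labelled cell type. Peak lists also do not show whether Smchd1 was deleted, and deletion, transduction and selection cannot be told apart in any comparison of genotypes.

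Most members were either wholly under the mark or free of it. A peak touched the gene ends in all 4 libraries in 23 of the 35 members, against 15.3% of 21627 protein-coding genes. In 13 members the gene ends were covered completely in every library, against 0.990% of protein-coding genes, and in 10 members no library had a peak there, against 72.0%. A further 10 members were covered in part in every library, and Neurod4 and Msgn1 had a small peak at their ends in 1 library each. The fully covered members were short genes, of 1703 bp (Neurog1) to 5382 bp (Nhlh2). Bare members were short as well, of 1496 bp (Atoh7) to 4020 bp (Myf5). The longest members, Twist2 (46574 bp), Atoh8 (29607 bp) and Tal1 (15330 bp), were covered in part. The windows at the 2 ends of a short gene merge, whereas those of a long gene lie apart. The share of 0.990% is over genes of all lengths, and the part of gene length was not tested. Since the genes were chosen with results of these data known, the counts describe the members and are no test.

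**Figure D1:**
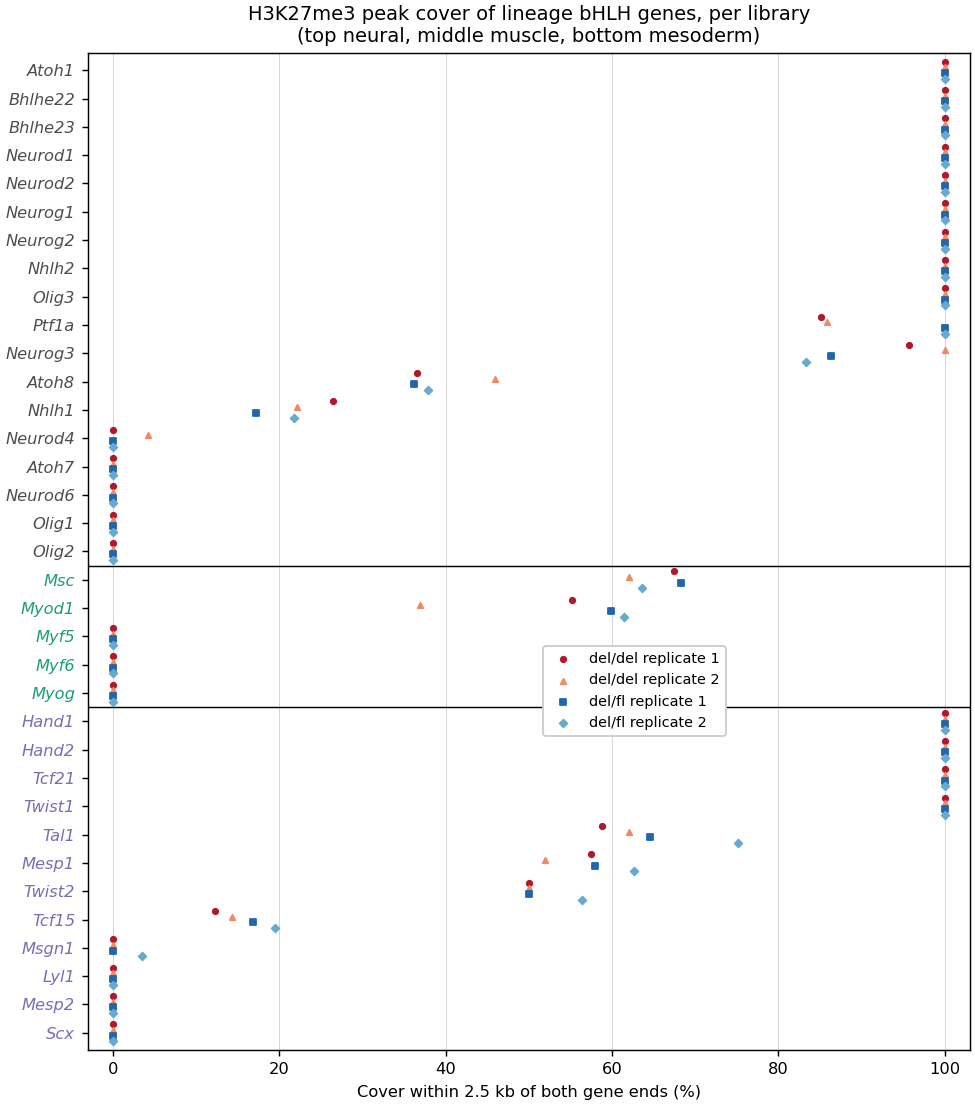
H3K27me3 peak cover within 2.5 kb of both gene ends (horizontal axis, percent) for each of the 35 members, with 1 point per library. The 13 members at 100 and the 10 at 0 in all libraries form the edges, and the libraries of the 2 genotypes are set apart in 7 of the members between them.

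Neural members were covered completely more often than muscle and mesoderm members. A peak in all 4 libraries was less divided, found in 13 of 18 neural, 2 of 5 muscle and 8 of 12 mesoderm members. No library had a peak in 4 neural, 3 muscle and 3 mesoderm members. Complete cover in all 4 libraries was found in 9 of 18 neural members, in 0 of 5 muscle members and in 4 of 12 mesoderm members. The median cover over the neural members was 97.9%, 100%, 100% and 100%, and over the 17 muscle and mesoderm members together it was 50%, 37.0%, 50% and 56.5%. The gap between these medians was 51.1 points ± 8.39 (SD, n = 4 libraries), and it was positive in all 4. Taken as class means it was 21.9 points ± 1.99, because both groups held bare members: neural means were 63.6%, 64.4%, 63.3% and 63.5%, and the others 41.2%, 39.8%, 42.2% and 43.7%. The muscle members were the least covered, with means of 24.5%, 19.8%, 25.6% and 25%, and mesoderm members lay between at 48.2%, 48.2%, 49.1% and 51.4%. The classes overlap widely gene by gene, and members are not replicates of a class, so no test was made.

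Among the proneural genes, which commit progenitors to a neuronal fate, Neurog1 (chr13:56250478-56252180), Neurog2 (chr3:127632733-127635636) and Atoh1 (chr6:64729125-64731245), the last needed for cerebellar granule cells and hair cells, were covered at 100% in every library. Neurog2 lay in the longest domains of any member in 3 of 4 libraries, at 118, 149, 144 and 47.0 kb. The domain took in Alpk1, a kinase gene next to it, and its length turned on how gaps were bridged: with gaps of up to 1 kb it was 34.7, 45.6, 29.7 and 33.5 kb. The domain of Neurog1 spanned 18.1, 23.5, 18.7 and 18.4 kb and that of Atoh1 18.3, 22.9, 17.1 and 13.0 kb. These 3 genes thus had the same cover at their ends but domains of very different reach. Neurog3, the determination factor of pancreatic endocrine cells, had 95.8%, 100%, 86.3% and 83.4%.

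The differentiation factors that act after the proneural genes were split. Neurod1 (chr2:79452637-79456636) and Neurod2 (chr11:98325415-98329645), which drive neuronal and endocrine maturation, were covered at 100% in all libraries, in domains of 23.7 to 25.8 kb and 30.2 to 34.2 kb. Their relatives Neurod4 and Neurod6 were not: Neurod6, a marker of cortical projection neurons, had its nearest peak 72.2 to 238 kb away, and Neurod4 had 4.29% at its ends in del/del replicate 2 and none in the others. Nhlh2 (chr3:102010111-102015492) was covered at 100% in every library and its paralog Nhlh1 at 26.4%, 22.2%, 17.2% and 21.8%. In Nhlh1 the peaks lay inside the gene, with a further one at its 3′ end in del/fl replicate 2, and the 300-base promoter window was bare in all 4 libraries, as the plot of cover around the start shows. Bhlhe22 and Bhlhe23, repressors known from retinal neurons, were both covered completely.

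The Olig family divided along its members. Olig3 (chr10:19356539-19358604), which patterns the dorsal spinal cord and hindbrain, was at 100% in every library, with domains of 46.7, 34.2, 61.6 and 55.7 kb. Olig2 (chr16:91225550-91228677) and Olig1 (chr16:91269769-91271939), the oligodendrocyte and motor neuron factors, lie 41.1 kb apart and had no peak at their ends. The nearest peak to Olig2 was 373, 123, 126 and 92.0 kb away. So 1 gene of the family sat in a broad domain and the other two in a stretch free of peaks in all 4 libraries.

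Atoh7, needed for retinal ganglion cells, was bare as well, with the nearest peak at least 114 kb off. Atoh8 (chr6:72206174-72235780), a divergent relative of Atoh1, was covered over much of its long body, at 72.8%, 77.6%, 82.1% and 83.6%, but at its ends only at 36.5%, 46.0%, 36.2% and 37.9%. Averaged over libraries, its peaks covered 23.7 kb of the 40 kb after its start and 4.32 kb of the 40 kb before it. Ptf1a (chr2:19445663-19447501), which specifies pancreas and inhibitory neurons of the cerebellum and spinal cord, was at 85.2%, 85.9%, 100% and 100%.

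**Figure D2:**
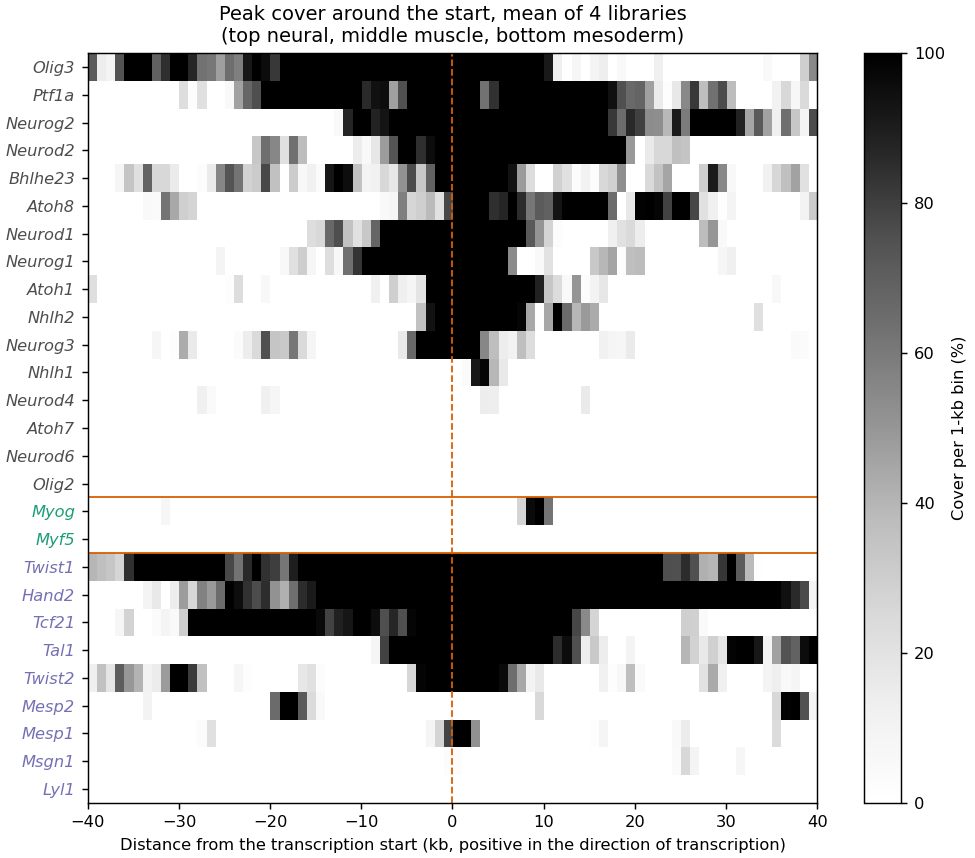
Mean cover over the 4 libraries in 1-kb bins (grey scale, percent) from 40 kb before to 40 kb after the transcription start, in the direction of transcription, for the 27 members with a RefSeq promoter entry. Olig3, Twist1, Hand2 and Tcf21 carry broad cover on both sides, Atoh8 and Tal1 mostly after the start, and Atoh7, Neurod6, Olig2, Myf5 and Lyl1 none.

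The muscle members carried the mark over short stretches or not at all. Myod1 (chr7:46376474-46379092), a muscle determination factor, had cover at its ends of 55.2%, 37.0%, 59.9% and 61.5%, in domains of only 4.23, 2.82, 4.93 and 5.15 kb. Msc (chr1:14753344-14756089), a repressor in muscle precursors, had 67.4%, 62.1%, 68.3% and 63.7%. Myf5 and Myf6, which lie 5.92 kb apart and specify muscle progenitors and later fibres, had no peak within 209 kb. Myog (chr1:134290004-134292548), the factor of terminal muscle differentiation, had none at its ends, with a peak 5.60, 4.50, 5.40 and 5.40 kb from the gene. With peaks held to a stricter threshold, a −log10 q of at least 5, no muscle member had a peak in all 4 libraries, against 11 neural and 6 mesoderm members and 4.57% of protein-coding genes, and the 13 fully covered members stayed at 100%.

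Of the mesoderm members, Hand2, Hand1, Twist1 and Tcf21 were fully covered in every library. Hand2 (chr8:57320983-57324517), a factor of heart, limb and sympathetic neurons, was at 100% in all libraries, in domains of 69.1, 66.8, 68.6 and 69.7 kb. Hand1 (chr11:57828713-57832147), of heart and placenta, was at 100% in domains of 25.6, 21.7, 26.3 and 34.3 kb. Twist1 (chr12:33957671-33959831), a factor of cranial mesenchyme, was at 100% in domains of 67.1, 65.2, 73.2 and 76.0 kb, which also held Ferd3l, another bHLH gene covered at 100%. Tcf21 (chr10:22817263-22820143), of epicardium and kidney mesenchyme, was at 100% in domains of 42.1 to 47.7 kb. Twist2, the dermal paralog of Twist1, had 50%, 50%, 50% and 56.5%. It is the longer gene, with 46574 bp against 2161 bp in Twist1. Its start was covered in every library, and its far end only in del/fl replicate 2, by a peak of 646 bp.

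The blood and somite members were mixed. Tal1 (chr4:115056426-115071755), the master factor of blood formation, had 58.8%, 62.0%, 64.6% and 75.2% at its ends and 83.1% to 93.2% over its body. Lyl1, its blood paralog, had its nearest peak 98.0 to 99.5 kb away. Mesp1 (chr7:79792241-79793590), of early cardiac mesoderm, had 57.4%, 51.9%, 58.0% and 62.6%, whereas Mesp2, a somite boundary gene 17.1 kb away, had no peak at its ends. Tcf15 (chr2:152143056-152149097), of somites, had 12.2%, 14.3%, 16.9% and 19.5%. Scx, the tendon factor, had no peak within 55.0 kb, and Msgn1, of presomitic mesoderm, had 3.47% in del/fl replicate 2 alone. The paralog pairs Twist1 and Twist2, Tal1 and Lyl1, and Mesp1 and Mesp2 thus each joined a more and a less covered gene.

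Domains of the 23 members with a peak in all libraries were long. Their median length was 18.5, 22.9, 21.8 and 24.3 kb per library, against a median of 5.54 kb (quartiles 2.98 and 12.1 kb) over 2561 autosomal protein-coding genes with a peak in all 4. By class the median was 19.7 kb for 13 neural, 4.92 kb for 2 muscle and 24.5 kb for 8 mesoderm members, so by length the mesoderm members were not below the neural ones. The 13 fully covered members had medians of 15.7 to 131 kb, and the 10 partly covered ones 1.70 to 51.6 kb. Peak height, the authors' pileup value, ranks a peak only within its own list. The peaks of the fully covered members stood above 96.2% to 99.8% of the autosomal peaks of their lists, and Hand1 was highest by this rank, at 99.6 to 99.8% with a fold enrichment of 12.5 to 13.7. The partly covered members ranged from 68.3%, in Mesp1, to 99.2%, in Tal1.

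**Figure D3:**
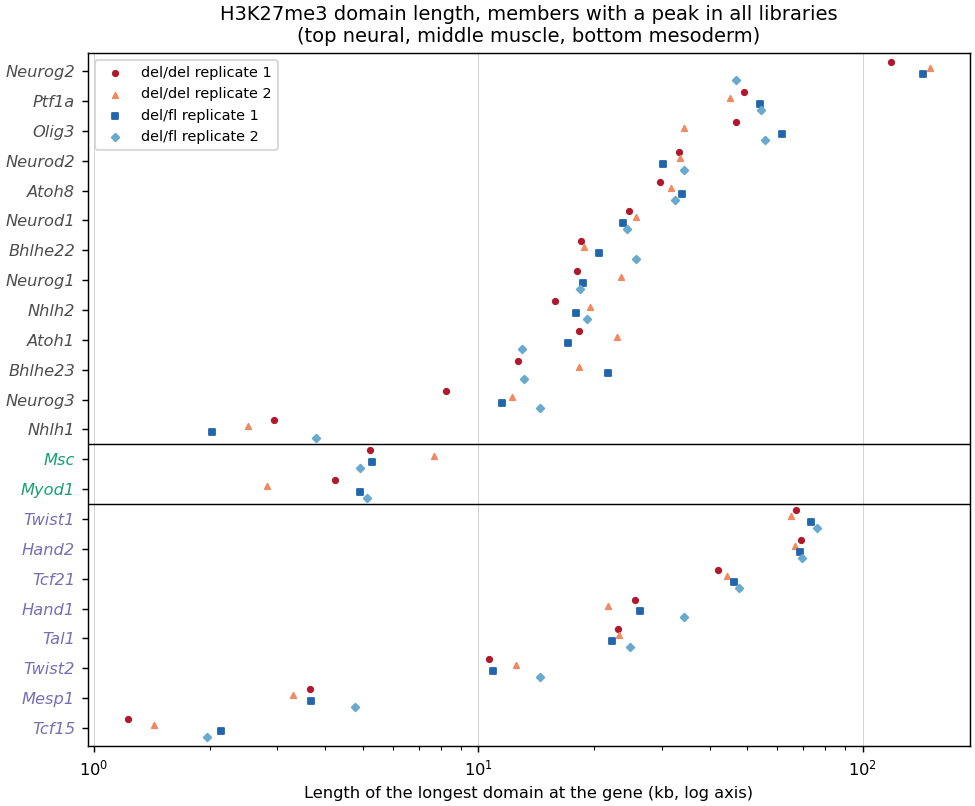
Domain length (horizontal log axis, kb) of the 23 members with a peak in all 4 libraries, with 1 point per library. Lengths run from 1.23 kb in Tcf15 to 149 kb in Neurog2, and in 10 members both del/del points lie left of both del/fl points.

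The promoters of 27 members had a RefSeq entry, and those of Scx, Myod1, Hand1, Myf6, Bhlhe22, Olig1, Tcf15 and Msc had none. In the 300-base windows (250 bases before the start and 50 after it), the dinucleotide CG, which reads the same on both strands, was counted, and no other motif was searched. At least 1 CG occurred in 95% of 17273 protein-coding promoters, with a median of 14. The 11 fully covered members held 2 to 32 CG (median 17) and the 7 bare ones 3 to 25 (median 9). The ranges overlapped: Nhlh2 with 2 CG and Olig3 with 4 were fully covered, and Olig2 with 25 was bare, as the sequences of Olig3 and Olig2 above show. Windows with 15 to 24 CG lay under a peak in all 4 libraries in 7 of 7 members and in 8.77% of all promoters of that class. The same held for 3 of 8 members and 4.02% of promoters with 0 to 4 CG, 3 of 7 and 10.2% with 5 to 14, and 4 of 5 and 7.36% with 25 or more.

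**Figure D4:**
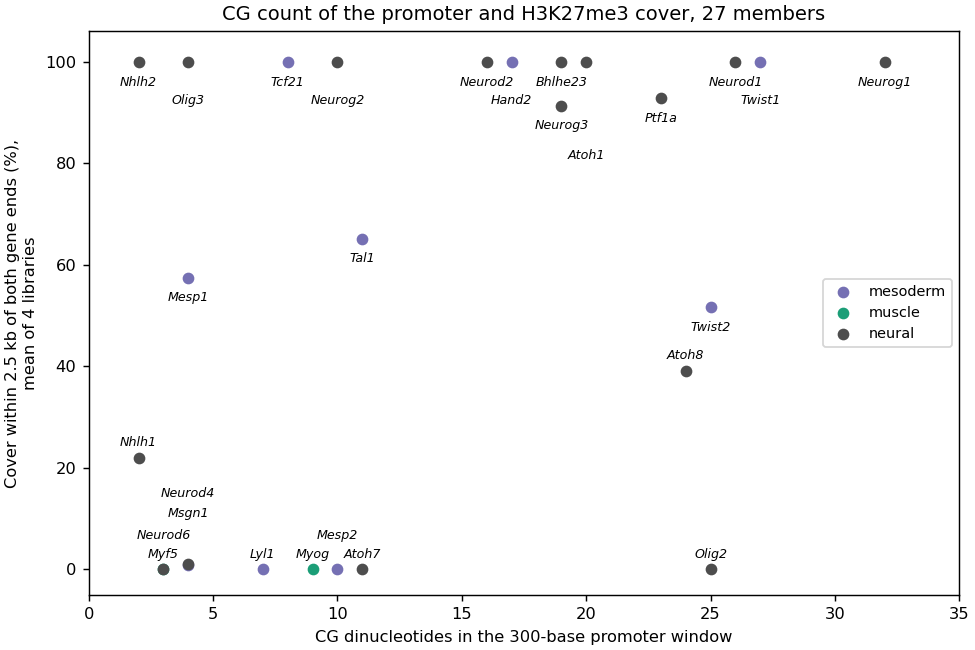
CG dinucleotides in the 300-base promoter window (horizontal axis) and mean cover at gene ends over the 4 libraries (vertical axis, percent) for 27 members, coloured by class. Members at 100% run from 2 CG in Nhlh2 to 32 in Neurog1, and members at 0% from 3 in Neurod6 and Myf5 to 25 in Olig2.

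The comparison of genotypes asked whether cells without Smchd1 carried these genes' H3K27me3 differently. With limma, 0 of 9131 genes (0.00%) passed an adjusted p of 0.05 at their ends, and 0 of 9331 over their bodies. At an unadjusted p under 0.05 the fit gave 517 genes higher (5.66%) and 382 lower (4.18%) at the ends, and 602 higher (6.45%) and 304 lower (3.26%) over the bodies. Ptf1a and Neurog3 at the ends and Tcf15 over its body were among them. These counts include the X chromosome. A fit of autosomal genes alone gave 121 higher and 316 lower of 8064 at the ends, and 142 higher and 235 lower of 8292 over the bodies. No member passed, and none was gained or lost, that is, had a peak in both libraries of 1 genotype and in neither of the other. The mean over members of the difference, del/del minus del/fl, was −0.886 points (neural 0.542, muscle −3.16, mesoderm −2.08). It became 3.30 (neural 5.49, muscle −1.15, mesoderm 1.85) when each library was divided by its mean over autosomal genes. The division itself gives each fully covered member a difference of 7.81, which raises the neural and mesoderm values. Among mesoderm members not fully covered, only Twist2 lay above 0 after division (1.07). Tal1 (−4.12), Tcf15 (−3.74), Msgn1 (−1.52) and Mesp1 (−0.703) lay below it. The change of sign in mesoderm is therefore no measure of a genotype difference. Without division, the mean was higher in del/del in 4 members (37.6% of autosomal genes with a peak) and lower in 8 (57.7%). For 23 members the group means were equal, as the fully covered and the bare ones leave no room for a difference in 1 or both directions.

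Libraries of the 2 genotypes did not overlap in 7 members. Neurog3 and Nhlh1 had more cover in each del/del library than in either del/fl library, where 6.36% of autosomal genes with a peak did so. Both lay below in Ptf1a, Myod1, Tal1, Mesp1 and Tcf15, where 15.5% did. Of the 25 members with any peak, 13 were at 100% in every library and could not separate. The counts of 2 and 5 therefore cannot be weighed against these background shares. With the libraries divided by their autosomal means, 3 members lay above (Neurog3, Atoh8 and Nhlh1) and 1 below (Tcf15), and the libraries of Ptf1a, Myod1, Tal1 and Mesp1 overlapped.

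Ptf1a had a mean cover at its ends of 85.5% ± 0.496 (SD, n = 2) in del/del and of 100% ± 0 in del/fl. The difference was −14.5 points (SE 0.892, 95% interval −17.4 to −11.6), with a limma p of 0.000633 and an adjusted p of 0.260 over all genes. Both del/fl libraries stood at the ceiling of 100%, so their SD of 0 is no measure of spread. The same fit gave each fully covered member, which shows no spread at all, an SE of 0.796. The narrow interval and the small p of Ptf1a are therefore not a sound measure of the spread between libraries. The stretch under a single run of peaks around the gene ended 1290 and 1535 bp past its 3′ end in del/del, and 19882 and 17501 bp past it in del/fl. Peaks did not stop there in del/del. In replicate 1 a further run of 13628 bp reached 15931 bp past the 3′ end. With gaps bridged, the domains ended at chr2:19465144 and chr2:19467580 in del/del, and at chr2:19476353 and chr2:19476132 in del/fl. The adjusted p was 0.0118 with stricter peaks, 0.0190 without del/del replicate 1 and 0.0426 with only genes of at least 10% mean cover, and it missed 0.05 in the other settings run, with a difference of 0 in 1-kb windows. The gap that sets the genotypes apart thus lies on the 3′ side of the gene and not at its promoter, which was covered in all 4 libraries.

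Neurog3 (chr10:62133090-62134763) differed in the opposite direction, at 97.9% ± 3.00 with the deletion and 84.8% ± 2.09 without it (SD, n = 2). The difference was 13.0 points (SE 2.38, 95% interval 4.84 to 21.2), with a limma p of 0.0167 and an adjusted p of 0.332. Its run of peaks reached 2217 and 3054 bp past the 3′ end in del/del and 1587 and 1390 bp in del/fl, and on the 5′ side 4330 and 4326 bp against 5077 and 5573 bp. The ends of the run lay further 3′ and less far 5′ in both del/del libraries, and with windows of 5 kb in place of 2.5 kb the difference became −2.41 points, and with 1 kb it was 0.

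Nhlh1 (chr1:172052292-172057596) had 24.3% ± 3.00 in del/del and 19.5% ± 3.25 in del/fl, a difference of 4.80 points (limma, adjusted p = 0.624). Over its body it had 55.6%, 47.5%, 38.2% and 41.1%, without overlap of the genotypes (limma, adjusted p = 0.581). Atoh8 differed by 4.22 points at its ends (limma, adjusted p = 0.660) and by −7.69 points over its body (limma, adjusted p = 0.556), in opposite directions.

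Of the muscle members, Myod1 had 46.1% ± 12.9 in del/del and 60.7% ± 1.11 in del/fl, a difference of −14.6 points with a 95% interval from −42.3 to 13.2 (limma, adjusted p = 0.624). Over its body the values were 65.1%, 47.9%, 78.8% and 83.4%, lower in both del/del libraries. The run of peaks over Myod1 began 2525 and 1562 bp outside the gene in del/del against 2865 and 2963 bp in del/fl. It stopped 913 and 1364 bp short of the other end of the gene against 556 and 436 bp, so it was shorter on both sides in both del/del libraries. Msc differed by −1.20 points (limma, adjusted p = 0.906), with overlapping libraries, and by 3.92 points after division by the library means.

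Of the mesoderm members, Tal1 differed by −9.46 points (SE 4.92), Mesp1 by −5.60 (SE 3.28) and Tcf15 by −4.95 (SE 1.74), with limma adjusted p of 0.624, 0.624 and 0.588. In Tcf15 the body had 20.3%, 23.7%, 35.4% and 32.6%, a difference of −12.0 points with a limma p of 0.0162 and an adjusted p of 0.333. Twist2 differed by −3.23 points at its ends, from del/fl replicate 2 alone. All mesoderm members with unequal means thus lay lower in del/del as measured, and with libraries divided by their autosomal means Twist2 turned to higher.

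**Figure D5:**
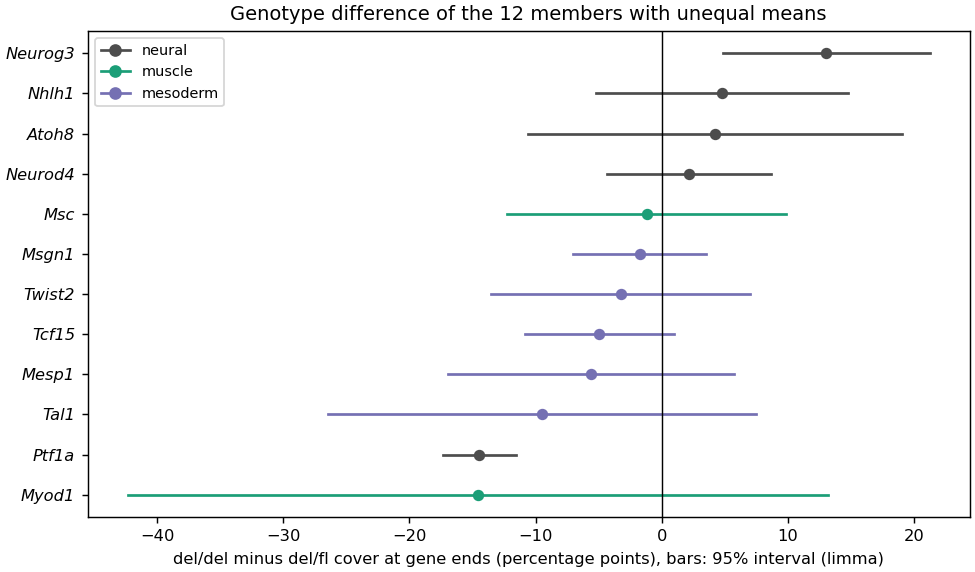
Difference in cover at gene ends, del/del minus del/fl (horizontal axis, percentage points), for the 12 members whose group means differ, with the 95% interval of the limma fit. The intervals of Ptf1a, below 0, and Neurog3, above 0, leave out 0, and those of the other 10 include it. Ptf1a stood at the ceiling of 100% in both del/fl libraries, so its narrow interval is not a sound measure of spread.

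Domains were shorter in del/del in more members than they were longer. Both del/del domains were shorter than both del/fl domains in 10 of 23 members (43.5%), against 26.9% of autosomal protein-coding genes, and longer in 2 (8.70%), Neurod1 and Atoh1, against 9.76%. The 10 were the neural members Olig3, Bhlhe22, Atoh8 and Ptf1a, the muscle member Myod1 and the mesoderm members Hand1, Twist1, Tcf15, Tcf21 and Mesp1. Olig3 domains averaged 40.5 kb ± 8.83 in del/del and 58.6 kb ± 4.18 in del/fl, and Twist1 domains 66.1 kb ± 1.37 and 74.6 kb ± 2.00. Ptf1a domains averaged 47.2 kb ± 2.81 and 54.3 kb ± 0.272, and Atoh1 domains 20.6 kb ± 3.30 and 15 kb ± 2.92 (SD, n = 2 for each). The counts were 10 shorter and 4 longer with gaps of up to 1 kb, 6 and 2 with gaps of up to 10 kb, 9 and 3 with lists of equal length, and 6 and 1 of 17 with stricter peaks. Background shares were not computed for these settings, and the lower mean cover of del/del over all autosomal genes moves in the same direction; its part in the count was not tested.

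Tcf21 shows how such a domain differed. An unbroken run of peaks over the gene measured 18028 and 26610 bp in del/del and 43591 and 44887 bp in del/fl, while the domain with gaps bridged measured 42.1, 44.5, 46.3 and 47.7 kb. On the 5′ side the run reached 4918 and 11689 bp past the gene in del/del and 29353 and 29292 bp in del/fl. The peaks thus covered much the same span, with breaks on the 5′ side in both del/del libraries. Tcf21 was singled out after its values were seen.

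Since 13 members were saturated at their ends, wider spans were also compared for them, a choice made after the data were seen. With 10 kb added on both sides of the gene, 4 of the 13 (Neurog1, Neurod1, Bhlhe22 and Nhlh2) lay lower in both del/del libraries, against 16.5% of autosomal genes with a peak in the span, and Atoh1 lay higher, against 6.50%. Atoh1 had 70.0%, 70.0%, 59.1% and 58.7%. With 25 kb added, 8 of 13 lay lower and 1 higher, against 16.9% and 6.44%. With 50 kb, 7 lay lower and 2 higher, against 17.1% and 6.33%. The background shares are over genes with a peak in the span in any library. Genes with a peak in only 1 library cannot separate, whereas the 13 had peaks in every library, so the shares are not like for like. The lower mean cover of del/del over all autosomal genes moves in the same direction, and its part was not tested.

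The partners, regulators and targets of these factors ranged from bare to fully covered. Of 55 related genes in 9 lists, 26 had no peak at their ends, against 72.0% of protein-coding genes, and 21 had one in all 4 libraries, against 15.3%. Means were higher in del/del in 10 and lower in 18, and none passed limma. None of the 3 E protein genes, the dimer partners, and none of the 4 Polycomb subunit genes had a peak. Of the 4 Id genes, whose products sequester E proteins, Id4 alone was covered, at 18.9%, 12.3%, 32.2% and 59.0% (limma, adjusted p = 0.624). Id4 lay lower in both del/del libraries.

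Of 10 genes of the Hes and Hey family, some of which encode repressors of the proneural genes, 5 (Hes1, Hes5, Hes6, Hes7 and Hey1) had no peak. Hey2 had 27%, 25.5%, 39.7% and 41.0%, a difference of −14.2 points (limma, adjusted p = 0.260). Hes3 had 84.7%, 80.1%, 75.6% and 74.9%, higher in both del/del libraries (limma, adjusted p = 0.535). Of 5 Notch ligand genes, Dll1 and Jag1 had no peak. Dll3 had 0%, 0%, 8.44% and 12.1%, the one related gene here named with peaks in both del/fl libraries and in neither del/del library (limma, adjusted p = 0.315).

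Of 11 other class II bHLH genes, 5 had no peak and 6 had one in all 4 libraries. Ascl5 had 23.8%, 27.8%, 42.0% and 51.9% (limma, adjusted p = 0.404) and Bhlha9, a limb gene, 43.4%, 58.0%, 66.2% and 62.3% (limma, adjusted p = 0.624). Both lay lower in both del/del libraries. A peak in all 4 libraries was found in 4 of 5 neuronal target genes, 2 of 7 muscle target genes and 2 of 6 mesoderm target genes. Dcx among the neuronal targets and Tnmd and Gata1 among the mesoderm targets lie on the X chromosome. For the factors themselves the same count was 13 of 18 neural, 2 of 5 muscle and 8 of 12 mesoderm members. Neuronal genes thus came first in both, but only narrowly before mesoderm for the factors, from few genes and with no test.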

How the data were processed

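The samples were 4 H3K27me3 libraries, 2 per genotype, and their 4 whole-cell extract controls. The submitters' processing notes name bcl2fastq, Bowtie 0.12.9 and the build mm10. Per the file headers, MACS2 2.1.0.20140616 ran on each sample in broad mode with down-sampling, a q-value limit of 0.05, at most 1 tag at a position and background windows of 1000 and 10000 bp. Listed q-values ran up to 0.0983. The deposited pileup is the signal (tags stacked in a peak), the deposited fold enrichment is its ratio to local background, and p-values and q-values are deposited as −log10. All of these are the authors' values for each peak, and they give no counting error.

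Percent cover of gene ends and bodies (RefSeq, GRCm38.p6) was computed with Python 3.11.15, numpy 2.4.6 and pandas 2.3.3, drawn with matplotlib 3.10.9, and compared with limma 3.58.1 in R 4.3.3 (variance trend, robust fit, Benjamini-Hochberg adjustment over all genes with a peak). An overlap of 1 bp counted as a peak. The scripts were tested on simulated data. Separate embryos are not stated in the labels, and p-values therefore measure only the spread between these samples, which may be technical. Lines were divided between the genotypes, so libraries may share a line. Which do is not stated, and fits were unpaired. An exact permutation test of 2 against 2 libraries cannot go below 0.333, so none was used.

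The members, the related lists and the tests were chosen with earlier results of these data known. Values in every library were given, per class, for the 3 members with the largest difference and the highest and lowest covered ones. They were also given for members gained or lost or with an unadjusted p under 0.05, and bare members were named. Of each related list with any difference, the gene with the largest one was named. For the Hes and Hey genes and the other class II bHLH genes the second largest was named too. Stmn2, Tubb3 and Snai2 were named besides, outside this rule. Further members were described by domain, promoter or paralog after their values were seen. Alternatives were stricter peaks, lists of equal length, other windows and gaps, other scales and filters, a replicate block and leaving out each library. Allele-specific signal was not analysed here.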

Additional observations from a re-analysis of the deposited data

How the results depend on the processing

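A peak in all 4 libraries was found in 17 to 23 members under every alternative. Complete cover was found in 13 members with 2.5-kb windows, 15 with 1 kb and 4 with 5 kb. The gap between class medians of 51.1 points was 99.5 with stricter peaks and 21.9 as class means, and lay between 47.1 and 53.6 when 1 library was left out. The mean genotype difference of −0.886 was 0.155 with 1-kb windows, −1.62 with 5-kb windows and 3.30 after division by library means, and −1.29 to −0.484 without 1 library. The value of 3.30 holds a fixed positive difference for each fully covered member, set by the division. The median domain, 21.9 kb as a mean over libraries, was 17.1 kb with 1-kb gaps and 33.7 kb with 10-kb gaps.

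limma calls at gene ends, 0 in both directions, became 64 higher and 47 lower with stricter peaks, 14 and 7 with 1-kb windows, 14 and 3 with genes of at least 10% mean cover, and 93 higher with 5-kb windows. Over gene bodies, calls became 66 higher and 29 lower with stricter peaks, and higher calls 5 with lists of equal length, 5 with the 10% filter, 9 without a variance trend and 3 on a logit scale. Leaving out 1 library gave 0 to 1063 higher and 0 to 1295 lower calls at gene ends, and 0 to 1097 and 0 to 1133 over bodies. The highest counts came without del/del replicate 1 (higher) and del/fl replicate 1 (lower). In these fits the lone library is assumed to vary like the others, and of the 8 members followed they called Ptf1a alone. A fit with no filter could not be fitted, and the cause of the other shifts was not tested. With the replicate number as a block, 0 genes were called in either direction at gene ends and over bodies. The difference between replicates 1 and 2 of a gene was only weakly correlated between the genotypes (r = 0.111 across 8064 genes, not independent). This r leaves out a shift common to all genes. Such a shift was shared, with mean cover of 16.9% and 20.1% in del/del replicates 1 and 2 and 18.2% and 21.9% in del/fl.

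For 8 members fitted under each alternative, 88 values kept direction and side of the threshold, 2 became exactly 0 (Ptf1a and Neurog3 with 1-kb windows), 3 passed the threshold (Ptf1a, given above) and 7 changed sign. These were Neurog3 with 5-kb windows (−2.41), Msc with 5-kb windows (0.259), with 1 library left out (−3.87 to 1.47, above 0 without del/del replicate 2 and, at 1.11, without del/fl replicate 1), Mesp1 with lists of equal length (2.57) and 1-kb windows (2.81), and Tcf15 with 1-kb windows (2.55).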

Other observations

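Target genes of the lineage factors ranged from no cover to nearly complete cover. Of the neuronal targets, Dcx, a microtubule protein of migrating neurons on the X chromosome, had 96.7%, 100%, 100% and 84.3% in the library order used above, and Stmn2, a neuronal growth protein, had 34.5%, 31.2%, 32.1% and 33.9%. Tubb3, a neuronal tubulin, had 29.4%, 41.2%, 15.9% and 58.3%, and Elavl4 had no peak. Of the muscle targets, Ckm, muscle creatine kinase, had 3.09% and 16.9% in del/del, and in del/fl it had 23.3% in replicate 2 and a value between those of del/del in replicate 1, so the genotypes overlapped, and Actc1 and Chrna1 had no peak. In both Tubb3 and Ckm the replicate 2 libraries, whose lists hold more autosomal peaks, stood above the replicate 1 libraries of the same genotype. Of the mesoderm targets, Snai2, a factor of epithelial to mesenchymal transition, had 60.2%, 60.1%, 36.5% and 72.3%.

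Tnmd, a tendon gene on the X chromosome and a target of Scx, had 100%, 91.1%, 68.7% and 67.7%, higher in both del/del libraries by 27.3 points (limma, adjusted p = 0.290). Syp, a synaptic vesicle gene and neuron marker on the X chromosome, had 31.2%, 64.4%, 2.39% and 12.3% at its ends, higher in both del/del libraries by 40.4 points (limma, adjusted p = 0.624). No member lies on the X chromosome. Of the neural stem cell markers with a peak, Pax6 had 8.70% to 22.1% and Prom1 0% to 17.1%, and Rbfox3, a neuron marker, had 21.6%, 28.4%, 36.9% and 35.1%.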
